A study of Mus musculus with 8 samples.

Results

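Platelet barcodes were the droplets of the single-cell libraries whose RNA held the transcripts of platelets, the small anucleate blood cells. A barcode was kept when it carried 200 to 6000 genes, 500 to 30000 UMIs (unique molecular identifiers, each standing for 1 captured transcript) and under 15% mitochondrial UMIs. It was taken as a platelet barcode when its UMIs of Ppbp, Gp9, Clec1b and Treml1 summed to 4 or more, those of C1qa, C1qb and C1qc to under 5, and Cd79a and Cd3e were at 0. In all, 730 of 27053 kept barcodes were chosen in this way, with 67 in the sham library, 19 in TAC-2w, 630 in TAC-4w and 14 in TAC-6w. Because these measured values chose the barcodes, the high levels of the 4 genes are a description of the choice.

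The hearts came from male wild-type C57BL/6J mice that were 8 weeks old at surgery. Pressure overload was induced by transverse aortic constriction (TAC), a narrowing of the aortic arch, and hearts were taken 2, 4 or 6 weeks later. Controls were sham-operated, and their time of harvest was not stated in the labels. Each condition was represented by 1 single-cell library and 1 spatial section, so no test between conditions could be made, and every interval below is a 95% interval that covers counting error only. By the labels, the sham and TAC-6w libraries were made in batch 3, TAC-2w in batch 1 and TAC-4w in batch 2, so that condition and batch cannot be told apart for TAC-2w and TAC-4w. The deposited matrices held 86671674 UMIs in 10275 barcodes for sham, 78587992 in 7924 for TAC-2w, 48278486 in 8420 for TAC-4w and 28793316 in 5854 for TAC-6w. The median kept barcode had 9250, 10856, 4484 and 4828 UMIs in this order. Of the barcode sequences, 120 occurred in more than 1 library, 5 of them in a platelet barcode, and none was a platelet barcode in both libraries.

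Platelets are shed by megakaryocytes of the marrow and lung and circulate without a nucleus, carrying a fixed stock of mRNA from the parent cell. Their alpha granules store chemokines, clotting factors and growth factors, their dense granules store serotonin and nucleotides, and their surface receptors bind collagen, von Willebrand factor and fibrinogen at sites of vessel injury. Activated platelets adhere to neutrophils and monocytes, so that a droplet may hold a platelet together with a leukocyte.

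The promoters of 3 platelet genes of different roles are shown here. All 3 genes were far higher in these barcodes than in all others of the TAC-4w library. For Gp9 and Clec1b, which are genes of the rule, the choice of barcodes itself set this height. Pf4 encodes the granule chemokine platelet factor 4, Gp9 a subunit of the receptor for von Willebrand factor, and Clec1b the podoplanin receptor CLEC-2. The sequences are the 250 bases before the annotated start, taken from the RefSeq table of build GRCm38.p6 and read on the + strand. They lie at chr5:90772185-90772434 for Pf4, chr6:87777820-87778069 for Gp9 and chr6:129397047-129397296 for Clec1b. Capitals mark a match, on either strand, to GATA letters (AGATAA and TGATAA, and their forms with a closing G, AGATAG and TGATAG) or to ETS-type letters (AGGAAG), which are bound by the GATA and ETS families of megakaryocyte transcription factors.
Pf4: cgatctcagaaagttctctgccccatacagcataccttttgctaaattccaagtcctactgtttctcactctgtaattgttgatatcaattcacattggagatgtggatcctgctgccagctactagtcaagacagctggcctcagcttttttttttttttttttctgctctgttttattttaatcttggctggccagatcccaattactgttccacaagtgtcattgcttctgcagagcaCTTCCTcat
Gp9: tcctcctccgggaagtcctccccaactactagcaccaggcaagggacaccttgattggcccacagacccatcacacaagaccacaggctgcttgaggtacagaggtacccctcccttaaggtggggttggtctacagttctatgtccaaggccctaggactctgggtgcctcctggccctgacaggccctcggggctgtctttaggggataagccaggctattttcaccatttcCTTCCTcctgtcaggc
Clec1b: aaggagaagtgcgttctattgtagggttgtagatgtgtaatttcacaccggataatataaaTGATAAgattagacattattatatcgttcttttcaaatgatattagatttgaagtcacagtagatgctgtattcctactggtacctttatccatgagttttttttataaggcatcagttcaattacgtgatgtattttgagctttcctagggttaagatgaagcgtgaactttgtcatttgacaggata
Pf4 and Gp9 held 1 ETS-type match each and Clec1b 1 GATA match, and the windows of Ppbp and Treml1 held neither. Among 10 platelet genes (Ppbp, Gp9, Clec1b, Treml1, Itga2b, Tubb1, Gp1ba, Gp5, Gp6 and Nrgn), 4 had a GATA match and 5 an ETS-type match. Over the windows of 27025 genes, 29.8% had a GATA match and 32.3% an ETS-type match. A match describes letters only and is no evidence of binding.

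Of the 4 genes that chose the barcodes, which the rule itself raised, 61 of 67 platelet barcodes in sham, 14 of 19 in TAC-2w, 575 of 630 in TAC-4w and 13 of 14 in TAC-6w had UMIs of 3 or more. The label was checked by Itga2b, the fibrinogen receptor subunit CD41, which was not part of the rule. It was detected in 73.1%, 57.9%, 79.2% and 92.9% of the platelet barcodes, against 2.37%, 2.13%, 4.398% and 2.21% of the other kept barcodes. Around the threshold in TAC-4w, 82 barcodes had 2 UMIs of the 4 genes, 43 had 3, 30 had 4 and 19 had 5, with the other conditions of the rule met. Those at 4 UMIs had a median of 3424 UMIs in all, and those at 3 had 3842, while the median platelet barcode of the library had 1120. The barcodes just inside the rule were therefore deeper and poorer in platelet RNA than the typical one.

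The 730 barcodes differed widely in depth and in the marker genes of other cells. Platelet share is the UMIs of the 4 rule genes over depth, so a deep barcode near the threshold has a low share by construction. A barcode was put in another class when its UMIs of that class's marker list (for example Dcn and Col1a1 for fibroblasts or Csf3r and Retnlg for neutrophils) numbered 4 or more and at least 3 times those of any other list. Shallow barcodes reach 4 such UMIs less easily than deep ones, so the division is not independent of depth. By this measure 590 platelet barcodes met no other class (51 in sham, 10 in TAC-2w, 516 in TAC-4w and 13 in TAC-6w), and 140 met one. Barcodes of no other class were small, with a median of 899 UMIs in sham, 759 in TAC-2w, 930.5 in TAC-4w and 709 in TAC-6w, and the 4 genes of the rule made up a median of 1.37%, 1.76%, 1.74% and 1.91% of their UMIs. Barcodes that met another class were large, with medians of 9520, 13242 and 5734 UMIs in sham, TAC-2w and TAC-4w and 22198 UMIs in the only one of TAC-6w, and the platelet share was 0.0868%, 0.0445%, 0.158% and 0.0180%. They were mostly fibroblast-like in sham (13 of 16) and TAC-2w (7 of 9). In TAC-4w, 34 were neutrophil-like, 32 erythroid-like, 13 endothelial-like, 12 monocyte-like and 12 fibroblast-like.

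**Figure D1:**
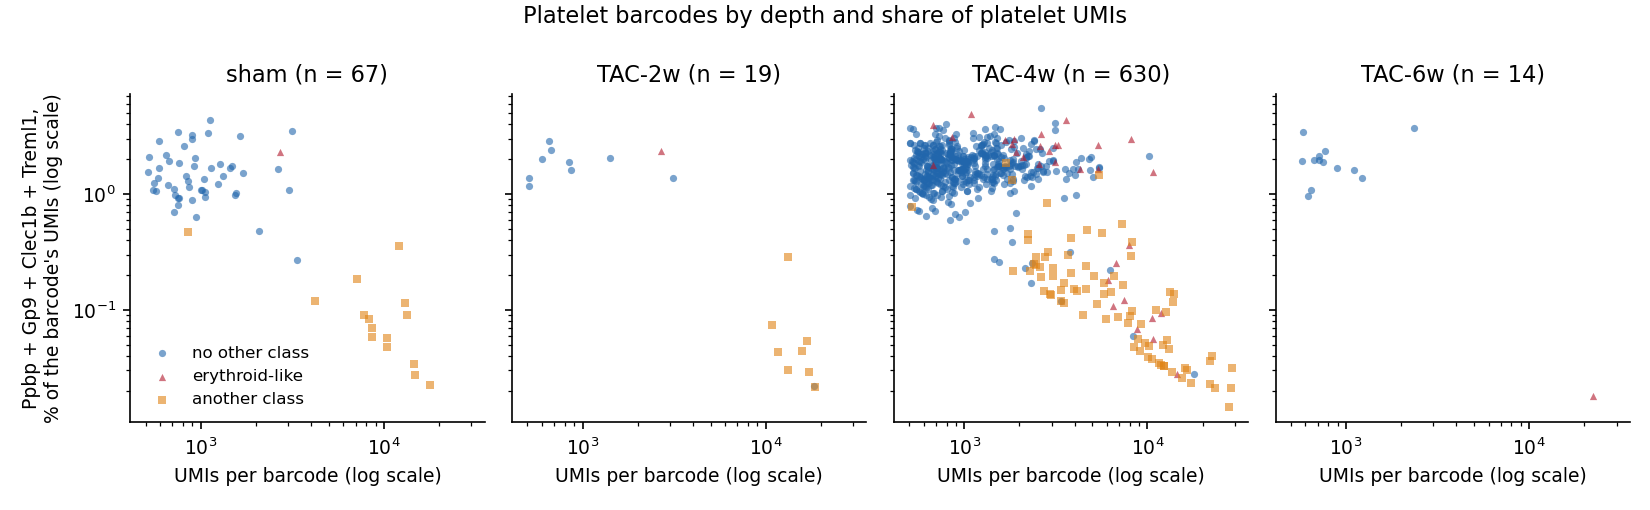
Each point is a platelet barcode, with its UMIs on the x axis (log scale) and the percentage of those UMIs that came from Ppbp, Gp9, Clec1b and Treml1 on the y axis (log scale), for the 4 libraries; colours separate barcodes of no other class, erythroid-like barcodes and barcodes of another class. Barcodes of no other class lie mostly at low depth, with medians of 709 to 930.5 UMIs, and above 0.5%, while most barcodes of another class lie below 0.5%, along the lower edge that 4 UMIs set.

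A platelet share of 0.5% or more was found in 574 of the 590 barcodes of no other class and in 30 of the 140 others, 24 of which were among the 35 erythroid-like ones. The one such barcode of TAC-6w had no haemoglobin UMI among its 22198, which goes against that name. Erythroid-like platelet barcodes had a median platelet share of 2.11% over all libraries, against 0.113% in those of the remaining classes. Only 33 platelet barcodes lay between 0.3% and 0.8%. Since barcodes of no other class held just 27.0%, 18.7%, 43.9% and 34.3% of the UMIs of all platelet barcodes in sham and at 2, 4 and 6 weeks after TAC, most of the summed RNA of the 730 lay in barcodes of another class. The transcript content below is therefore given for barcodes of no other class, a division made after the data were seen.

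The share of platelet barcodes was highest in TAC-4w by a wide margin. They made up 0.814% of kept barcodes in sham (interval 0.632 to 1.03), 0.292% in TAC-2w (0.176 to 0.456), 9.34% in TAC-4w (8.65 to 10.1) and 0.251% in TAC-6w (0.137 to 0.421). The TAC-4w share was 11.5 times that of sham (8.90 to 15.0). Those of TAC-2w and TAC-6w were 0.359 (0.204 to 0.605) and 0.308 (0.160 to 0.554) times that of sham, and only the last of these comparisons lies within a batch. With mitochondrial UMIs limited to under 5% these ratios were 0.694 and 0.668, above the upper limits just given. Counting barcodes of no other class alone gave 0.620%, 0.154%, 7.65% and 0.233%, with a TAC-4w ratio of 12.3 (9.24 to 16.8). Other classes of the TAC-4w library differed from sham as well. B cell-like barcodes numbered 226 of 8228 kept in sham and 2450 of 6747 in TAC-4w, and neutrophil-like ones 139 and 1216. Fibroblast-like barcodes numbered 4622 and 444, and macrophage-like ones 1735 and 161. The platelet share is a part of the same total, so it depends on these classes too. The share also moved with the barcode filters. In TAC-4w, 976 deposited barcodes had 4 or more UMIs of the 4 genes, of which 237 fell outside the filters, mostly by a mitochondrial share of 15% or more (196 barcodes). The requirement of no Cd79a UMI removed 87 further barcodes of TAC-4w and that of no Cd3e UMI removed 23, while neither removed any in the other libraries.

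Turning to the transcript content, genes of several platelet functions stood out in the TAC-4w library, which had the most UMIs in these barcodes, though few of those for dense granules or transcription factors did. At a ratio of 4 or more to the other kept barcodes, and at least 50 UMIs in either sum, 439 of 13135 genes (3.34%) were higher in barcodes of no other class, and 51 of the 89 tested genes from 7 lists of known platelet genes were among them, or 47 of 85 without the genes that chose the barcodes. Over all platelet barcodes the counts were 295 of 13140 genes (2.25%) and 44 of 89. The median ratio was 6.09 for the 89 genes and 5.43 for the 85, against 0.155 over all genes tested. Since the barcodes were chosen by 4 of these genes in the same libraries, the ratios describe the barcodes and test nothing. In what follows levels are CPM, the UMIs of a gene per 1000000 summed UMIs of the barcodes concerned, so that levels of different genes compare numbers of captured transcript ends.

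Of the alpha granule cargo, Pf4 was the most abundant. It stood at 19140 CPM in sham, 7912 in TAC-2w, 21029 in TAC-4w and 28919 in TAC-6w, and was detected in all 516 barcodes of no other class in TAC-4w, with a median of 20 UMIs per barcode. Ppbp, the precursor of the chemokine NAP-2 and one of the genes of the rule, stood at 7156, 2432, 8593 and 9410. The TAC-2w values are low because 1 barcode held 18360 of its 27552 UMIs. That barcode had 3594 genes, 255 UMIs of the MHC class II invariant chain Cd74 and only 4 UMIs of the rule genes, and without it Pf4 was at 23716 and Ppbp at 7289 CPM. The TAC-2w levels of barcodes of no other class given from here on leave this barcode out, a choice made after its values were seen.

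Further cargo genes with a ratio of 4 or more in TAC-4w were Clu (clusterin, 2128 CPM and 22.7 times the other barcodes), F5 (clotting factor V, 575 and 36.7 times), Mmrn1 (multimerin, a carrier of factor V, 360 and 93.3 times), Vwf (von Willebrand factor, 451 and 11.02 times), Pdgfa (a growth factor chain, 157 and 7.30 times) and Tgfb1 (426 and 4.402 times). In all, 8 of 15 tested cargo genes reached this ratio, Ppbp of the rule among them. Thbs1 and F13a1, the cargo genes for thrombospondin and the factor XIII A chain, had ratios of 3.21 and 3.57, and Srgn, the proteoglycan that packs granules of many blood cells, 1.74. Sparc and Timp3, which fibroblasts also make, were at 0.0326 and 0.0599 times the other barcodes. Selp, for the adhesion protein P-selectin, had just 15 UMIs in the 516 barcodes. Of 9 genes for dense granules and granule formation, 3 reached a ratio of 4: the serotonin transporter Slc6a4 (257 CPM, 245 times), Rab27b, a GTPase of granule release (359, 124 times), and the vesicular monoamine transporter Slc18a2 (29.9, 16.5 times).

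Of the adhesion receptor genes, 13 of 18 were past the ratio, a count that includes Gp9, Clec1b and Treml1 of the rule. Gp9, in the rule, was at 3289 CPM in sham, 3372 in TAC-2w, 3149 in TAC-4w and 4144 in TAC-6w. Its partners in the von Willebrand factor receptor were not in the rule: in TAC-4w Gp1bb was at 747 CPM, Gp5 at 662 and Gp1ba at 188, which is 202, 242 and 283 times the other barcodes. Clec1b was at 4846, 5222, 4428 and 6561 CPM, and Treml1, a granule receptor exposed on activation, at 1032, 1741, 1225 and 1899.

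The collagen receptor genes Gp6 (435 CPM, 240 times) and Itga2 (140.5 and 12.9 times) and the fibrinogen receptor chains Itga2b (2173 and 168 times) and Itgb3 (665 and 54.4 times) were also past the ratio in TAC-4w. The tetraspanin Cd9 was at 13366 CPM in sham and 16928 in TAC-4w, where it was 31.2 times higher than in the other barcodes, although many other cells express it. Cd36 and Icam2, both strong in endothelium, were at 0.25 of the other barcodes or less.

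Among receptors for soluble agonists, 5 of 7 tested genes passed the ratio in TAC-4w. They included the ADP receptors P2ry12 (625 CPM, 131 times) and P2ry1 (44.8, 16.7 times), the ATP-gated channel P2rx1 (235, 118 times) and the thrombin co-receptor F2rl2 (259, 82.2 times). Tbxa2r, the thromboxane receptor, had no UMI in the barcodes of no other class and was tested only through its level elsewhere.

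Signalling genes were divided. Alox12, the platelet 12-lipoxygenase, was at 1785 CPM in sham, 1814 in TAC-4w and 2072 in TAC-6w and 169 times the other TAC-4w barcodes. The inhibitory receptor Mpig6b (362 CPM, 218 times), the integrin activator Fermt3 (1559, 18.5 times), the Rap1 exchange factor Rasgrp2 (1036, 8.14 times) and the prostaglandin synthase Ptgs1 (197, 10.3 times) were also past the ratio, which 9 of 17 genes reached. Shared haematopoietic signalling genes such as Syk, Lcp2 and Lat lay between a ratio of 4 and its inverse.

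The most abundant transcript of TAC-4w outside mitochondrial and ribosomal protein genes came from the cytoskeleton group. Tmsb4x, for the actin-binding peptide thymosin beta 4, supplied 12.8% of the UMIs in sham, 14.7% in TAC-2w, 13.5% in TAC-4w and 16.5% in TAC-6w, where in the other kept barcodes it stood at 7584, 7580, 11086 and 6187 CPM. In single barcodes of TAC-4w it ranged from 19 to 1818 UMIs with a median of 125. Nrgn, a calmodulin-binding protein better known from neurons, was at 16586 CPM in sham, 17317 in TAC-4w and 20200 in TAC-6w and 192 times the other TAC-4w barcodes. The platelet tubulin Tubb1 (421.5 CPM, 232 times) and the myosin light chain Myl9 (3691, 107 times) followed, and 11 of 14 tested genes were past the ratio. Actb and Myh9, used by nearly all cells, had ratios of 3.07 and 2.67.

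Transcription factor mRNA was scarce, although the summed list was higher than elsewhere, at 542 CPM in sham, 637 in TAC-4w and 1036 in TAC-6w against 238, 339 and 206 in the other kept barcodes. Of 9 tested megakaryocyte factors just 2 passed the ratio, Nfe2 (245 CPM, 12.7 times) and Tal1 (76.2, 16.7 times). Runx1 and Fli1 stood at 82.2 and 103 CPM with ratios of 0.815 and 1.03. Gata1 had 19 UMIs in the 516 barcodes of TAC-4w, 2 in the 51 of sham and 1 in the 13 of TAC-6w. The 5 dividing-cell genes (Mki67, Top2a, Cenpf, Ube2c and Birc5) had 13 UMIs in TAC-4w and 1 in sham.

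Several genes outside the lists were as abundant as the textbook ones in TAC-4w. Ctla2a, a cysteine protease inhibitor first known from T cells, was at 45051 CPM in sham, 50334 in TAC-4w and 53954 in TAC-6w, which in TAC-4w was 123 times the other barcodes. Gng11, a G protein gamma subunit, was at 16463, 19955 and 16920 in the same libraries and 80.9 times the other TAC-4w barcodes, and the small open reading frame gene 1810058I24Rik stood at 12632, 16378 and 20114. Over all platelet barcodes of TAC-4w, the ratio of Gsta2, a glutathione transferase, was among the highest outside the lists (183 times, from 50 UMIs). So were those of Ly6g6c (133 times) and Ly6g6f (127 times). Pf4 was not confined to platelet barcodes. It was detected in 75.2% of macrophage-like barcodes of TAC-4w and in 92.7% of those of sham, at 828 and 2554 CPM in barcodes with fewer than 4 UMIs of the rule genes.

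**Figure D2:**
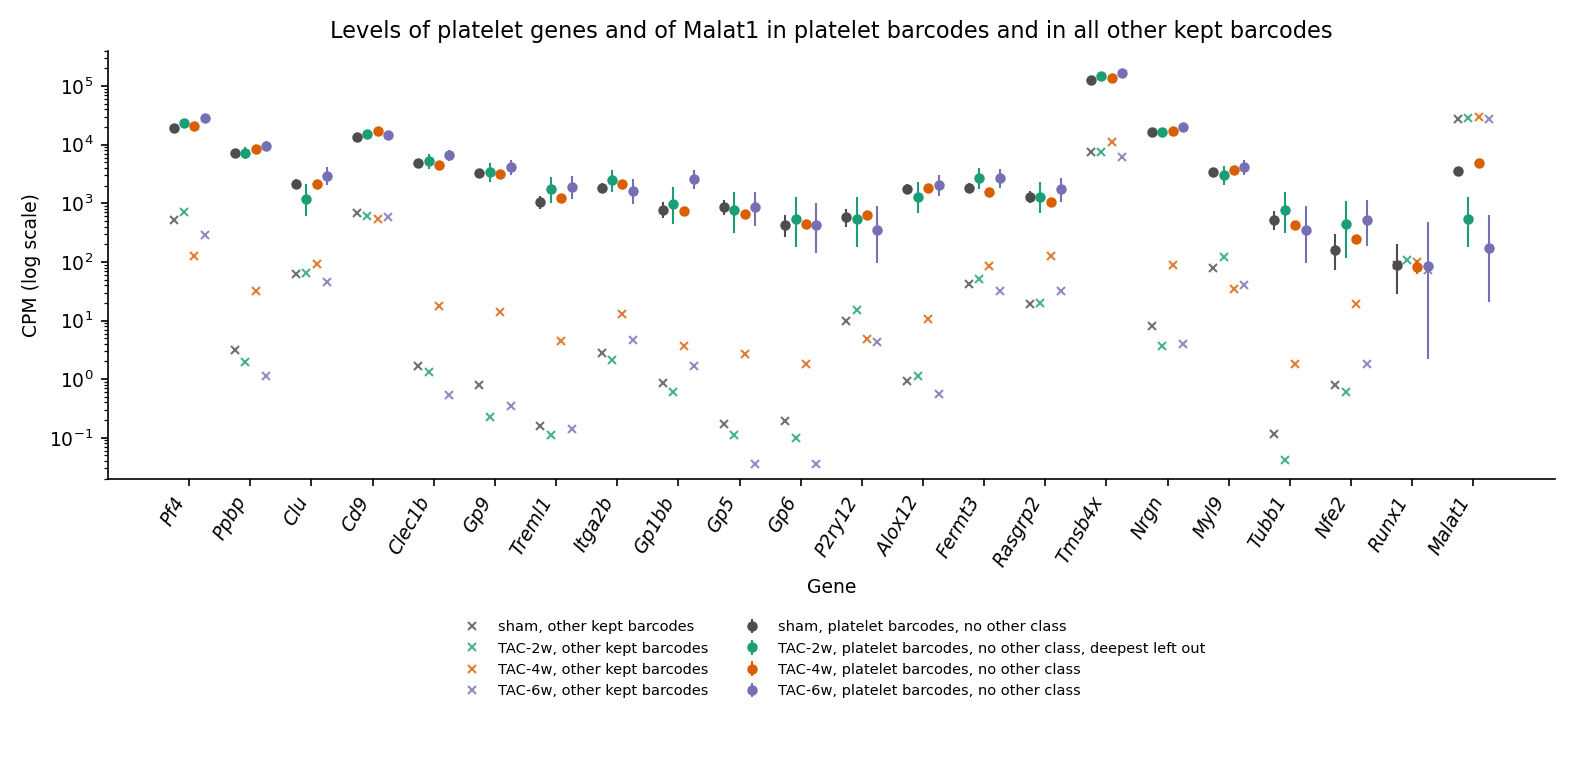
CPM (log scale) of platelet genes and of Malat1 in the 4 libraries, with filled points for platelet barcodes that met no other class (the deepest TAC-2w barcode left out) and crosses for all other kept barcodes; bars are 95% Poisson intervals of the summed UMIs, and points at 0 are not drawn. Filled points of the 4 libraries lie close together for most genes, such as 662 to 863 for Gp5, and above the crosses, a height that the choice of barcodes favours, while for Malat1 they lie below them.

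The RNA of platelet barcodes of no other class was simple and poor in nuclear transcripts. The 20 most abundant genes took 48.7% of the UMIs in sham, 48.4% in TAC-4w and 50.02% in TAC-6w, against 17.9%, 20.0% and 16.0% in the other kept barcodes. After each barcode was thinned to 500 UMIs, a median of 199 genes was seen in sham and 194 in TAC-4w, against 338 and 301 in the other barcodes. Ribosomal protein genes supplied 3.38%, 2.25%, 2.50% and 2.01% of UMIs in sham and then TAC-2w to TAC-6w, where in the other barcodes they supplied 15.9%, 15.3%, 19.2% and 21.9%. Malat1, a long noncoding RNA retained in the nucleus, was at 3587 CPM in sham, 544 in TAC-2w, 4781 in TAC-4w and 173 in TAC-6w, against 27601, 28147, 30071 and 27439 in the other barcodes. With its deepest barcode included, TAC-2w was at 16115 CPM. Malat1 had no UMI in 17 of 51 barcodes in sham, 277 of 516 in TAC-4w and 11 of 13 in TAC-6w. In TAC-4w 1 barcode held 1126 of the 3199 UMIs of Malat1, and in sham 1 held 102 of the 205. After thinning, Malat1 was seen in 49.0% of the sham and 28.9% of the TAC-4w barcodes, against 97.6% and 98.0% of the other barcodes. All 4 nuclear RNAs listed (Malat1, Neat1, Kcnq1ot1 and Meg3) were at 0.25 of the other barcodes or less in TAC-4w. Over all platelet barcodes none of the 4 was that low. There Malat1 was at 21301 CPM in sham and 13417 in TAC-4w, and ribosomal protein genes supplied 11.9% and 7.32% of UMIs. The median mitochondrial share was 8.21% in sham, 6.44% in TAC-2w with its deepest barcode included, 8.34% in TAC-4w and 3.25% in TAC-6w, against 4.4%, 4.49%, 4.69% and 2.57%.

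Between libraries, the content of platelet barcodes of no other class differed little in the platelet genes. In TAC-4w against sham, 80 of 944 tested genes (8.47%) were at least 2-fold higher and 28 (2.97%) at least 2-fold lower, with a median ratio of 1.04. None of 16 tested adhesion receptor genes was among them (median ratio 1.02), nor any of 11 cargo genes (1.10), 14 cytoskeleton genes (1.05) or 4 agonist receptor genes (1.07). Of 11 signalling genes 1 was lower, the thromboxane synthase Tbxas1, at 245 CPM in sham (14 UMIs) and 102 in TAC-4w (68 UMIs).

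Genes of leukocytes were among those with the highest ratios of TAC-4w to sham. S100a9 and S100a8, the calprotectin genes of neutrophils, had 278 and 198 UMIs in the 516 TAC-4w barcodes and 0 in the 51 of sham. Against a floor of 3 UMIs for the sham sum they were at least 7.92-fold and at least 5.64-fold higher, and the exact lower 95% limits, which include counting error, were 6.39-fold and 4.54-fold. They were spread over 189 and 146 barcodes. Igkc, the immunoglobulin kappa constant chain, had 85 UMIs in 75 barcodes against 1 UMI in sham, a ratio of 7.26 with a wide interval (1.27 to 290.1). These genes were also higher in the rest of the TAC-4w library. In the other kept barcodes S100a9 was at 524.5 CPM in sham and 18967 in TAC-4w, S100a8 at 344.7 and 14710, and Igkc at 130.7 and 3708. Ccl17, a chemokine of dendritic cells, had 196 UMIs in TAC-4w and 0 in sham, but all of them lay in 1 barcode. The lowest ratio was that of Ccl5, a chemokine of T and NK cells, where all 52 sham UMIs lay in 1 barcode and TAC-4w had 28.

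In TAC-6w against sham, the comparison within 1 batch, 118 genes could be tested on 11584 UMIs from 13 barcodes. Only 1 gene (0.847%) was at least 2-fold higher, the phosphatase gene Ptpn18 at a ratio of 3.29 (2.19 to 4.89), and 15 (12.7%) were at least 2-fold lower. The lowest were Malat1 at a ratio of 0.0481 (0.00579 to 0.176) and the beta globin gene Hbb-bs at 0.0605 (0.00727 to 0.222), each from 2 UMIs in TAC-6w. Without the sham barcode that held 102 of its 205 Malat1 UMIs, the Malat1 ratio was 0.0902 (0.0108 to 0.334). The mitochondrial genes mt-Nd2 and mt-Co2 were at 0.211 and 0.286. Among platelet genes Itga6, a laminin receptor chain, was lower, with 3 UMIs against 57 in sham, and none of 5 cargo or 6 cytoskeleton genes was called. In TAC-2w without the deepest barcode, 118 genes were tested on 9192 UMIs from 9 barcodes, with a median ratio of 1.05. Of these, 1 (0.847%) was higher than in sham, the thrombospondin gene Thbs1 at a ratio of 2.31 (1.36 to 3.78). Lower than in sham were 6 (5.08%), among them Malat1 at 0.152. The direction for Malat1 depended on the barcode left out, which held 439 Malat1 UMIs. With it, Malat1 was at 16115 CPM in TAC-2w against 3587 in sham. The sham barcode with 102 Malat1 UMIs stayed in both comparisons.

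When all platelet barcodes were summed, genes of other cells led the differences. At least 2-fold higher than sham were 34 of 583 genes (5.83%) in TAC-2w, 533 of 2952 (18.1%) in TAC-4w and 70 of 556 (12.6%) in TAC-6w, and 56 (9.61%), 420 (14.2%) and 213 (38.3%) were at least 2-fold lower. Single barcodes carried the leading higher genes of TAC-6w and TAC-2w. For the 10 highest TAC-6w ratios, 87.5% to 100% of each gene's UMIs lay in the only barcode of another class. In TAC-2w, 1 endothelial-like barcode held 95.7% of the Cd36 UMIs, 100% of those of Rbp7 and 98.7% of those of Fabp4. The highest TAC-4w ratio was that of S100a9 (935), and the lowest that of the fibroblast matrix gene Cilp (0.0189). The lowest TAC-6w ratio was that of the fibroblast gene Dcn (0.00281), and in TAC-6w none of the 14 platelet barcodes was fibroblast-like, against 13 of 67 in sham.

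To ask whether RNA of other cells shared the barcodes, each barcode was thinned to 500 UMIs and the share with a UMI of a list of other cells' genes was counted, beside the same share in cells that should lack those genes. Genes of the B cell, T cell and macrophage lists were limited by the rule itself, which barred Cd79a, Cd3e and high C1q. The neutrophil list (S100a8, S100a9, Wfdc21, Lcn2 and Mmp8) was found in 34.9% (30.8 to 39.2) of TAC-4w platelet barcodes of no other class and in 40.4% of those of another class. In the same library it was found in 14.7% of B cell-like barcodes, 16.7% of NK cell-like, 16.5% of T cell-like, 28.8% (23.2 to 34.9) of monocyte-like, 11.3% of fibroblast-like and 8.93% of erythroid-like barcodes, and in all neutrophil-like ones. In sham it was found in none of 67 platelet barcodes, which allows a share of up to 5.36%, and in 1.33% of B cell-like barcodes. Platelet barcodes of no other class had a median of 930.5 UMIs in TAC-4w and B cell-like ones 4392, and without thinning the shares were 55.8% and 74.0%.

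The amount of neutrophil RNA was small in most barcodes and large in few. In TAC-4w, 35 of 630 platelet barcodes had 10 or more UMIs of the list and held 97.5% of its UMIs, and 34 of the 35 met another class. In barcodes of no other class the list stood at 758 CPM, against 453 in B cell-like, 362 in NK cell-like and 187956 in neutrophil-like barcodes. S100a8 and S100a9 made up 39.1% and 54.8% of the list there and 41.5% and 53.6% in neutrophil-like barcodes. The list was thus carried by 34 barcodes of another class with many UMIs and, at a median of 1 UMI, by barcodes of no other class. Because neutrophil markers such as Csf3r and Retnlg helped to set the classes, this split was partly fixed in advance. Whether the single UMIs came from free RNA or from attached cells was not tested.

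The monocyte list was carried almost wholly by 1 gene in barcodes of no other class, and the fibroblast list mostly by 2. The monocyte list was found in 72.5% of them in sham and 74.4% in TAC-4w, but Lyz2, the lysozyme gene of myeloid cells, supplied 99.4% and 96.0% of its UMIs. The same list was found in 50.4% and 41.7% of B cell-like barcodes and in 6.47% and 6.33% of NK cell-like ones. Lyz2 stood at 2904 CPM in sham, 3095 in TAC-4w and 3798 in TAC-6w, against 8240, 23904 and 8110 in monocyte-like barcodes, while Ctss, the cathepsin S gene, had 1 UMI in sham and 29 in TAC-4w. The fibroblast list was found in 66.7% of sham and 35.7% of TAC-4w platelet barcodes of no other class, against 16.4% and 4.04% of B cell-like and 47.6% and 16.5% of endothelial-like barcodes. Gsn, for the actin-severing protein gelsolin, supplied 71.6% and 89.8% of the fibroblast list in sham and TAC-4w, at 1452 and 686 CPM. Mgp, for the matrix Gla protein, supplied a further 19.0% and 9.39%, with 22 UMIs in sham and 48 in TAC-4w. Dpt and Smoc2, matrix genes of the same list, had 2 and 0 UMIs in TAC-4w. The B cell list was found in 3.92% of sham and 12.98% (10.2 to 16.2) of TAC-4w barcodes of no other class. Below that share in TAC-4w were erythroid-like (5.36%), monocyte-like (7.82%), NK cell-like (8.33%), neutrophil-like (10.7%) and T cell-like barcodes (11.9%), the last 2 inside its interval. Endothelial-like (14.1%) and fibroblast-like barcodes (18.1%) were above it. The list holds Ebf1, which is not particular to B cells, so these higher shares need not be B cell RNA. In sham Ebf1 had 19117 UMIs in the other kept barcodes, while B cell-like barcodes held 11953 UMIs of the whole list. The NK cell list was found in 2 of 51 sham barcodes (3.92%, 0.479 to 13.5) and in 4.46% (2.85 to 6.61) of TAC-4w ones. In TAC-4w it was in 1.39% of B cell-like barcodes, but 3.13% of neutrophil-like, 3.29% of monocyte-like and 3.73% of macrophage-like ones lay inside that interval. The T cell list was found in 1 of 51 sham barcodes and in 1.74% (0.801 to 3.29) of TAC-4w ones, where B cell-like (0.94%), neutrophil-like (1.18%) and monocyte-like barcodes (2.47%) also lay inside the interval. The macrophage list was found in 45.1% of sham and 4.46% of TAC-4w platelet barcodes of no other class, against 30.5% and 17.3% of B cell-like and 14.4% and 7.33% of NK cell-like barcodes. The endothelial list was found in 19.6% and 17.4%, against 2.21% and 4.41% of B cell-like and 20.4% and 35.2% of fibroblast-like barcodes. The cardiomyocyte list was found in 23.5% (12.8 to 37.5) of sham and 8.53% (6.26 to 11.3) of TAC-4w platelet barcodes of no other class. In B cell-like barcodes it was in 5.31% and 0.572%, and in NK cell-like ones in 5.76% and 0.667%. Neutrophil-like barcodes of sham had it in 12.95% and macrophage-like ones of TAC-4w in 2.48%. Thinning takes more UMIs from deeper barcodes, and in sham the median was 899 UMIs in platelet barcodes of no other class and 3090 in B cell-like ones. Without thinning, their sham shares were 98.0% and 95.6% for the monocyte list and 86.3% and 78.8% for the fibroblast list. They were 39.2% and 33.2% for the cardiomyocyte list, 33.3% and 15.5% for the endothelial list, and 64.7% and 79.2% for the macrophage list, whose order reversed.

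Haemoglobin mRNA was widespread. A UMI of the 4 haemoglobin genes was seen after thinning in 98.0% of sham and 92.4% of TAC-4w platelet barcodes of no other class, against 54.0% and 26.8% of B cell-like barcodes. Without thinning, the sham shares were 98.0% and 98.7%, so this contrast was present only after thinning. The summed level in platelet barcodes of no other class was 10742 CPM in sham, 19308 in TAC-4w and 6992 in TAC-6w. Their median barcode held 10 UMIs in sham and 6 in TAC-4w. Of the 4 genes, Hba-a2 and Hbb-bs were at least 2-fold higher in TAC-4w than in sham in their summed UMIs, yet were detected in fewer barcodes, 48.4% against 70.6% for Hba-a2 and 64.1% against 92.2% for Hbb-bs. In TAC-4w, 157 of the 516 barcodes held 86.8% of the haemoglobin UMIs, with up to 2543 in 1 barcode. The source of these UMIs was not tested.

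**Figure D3:**
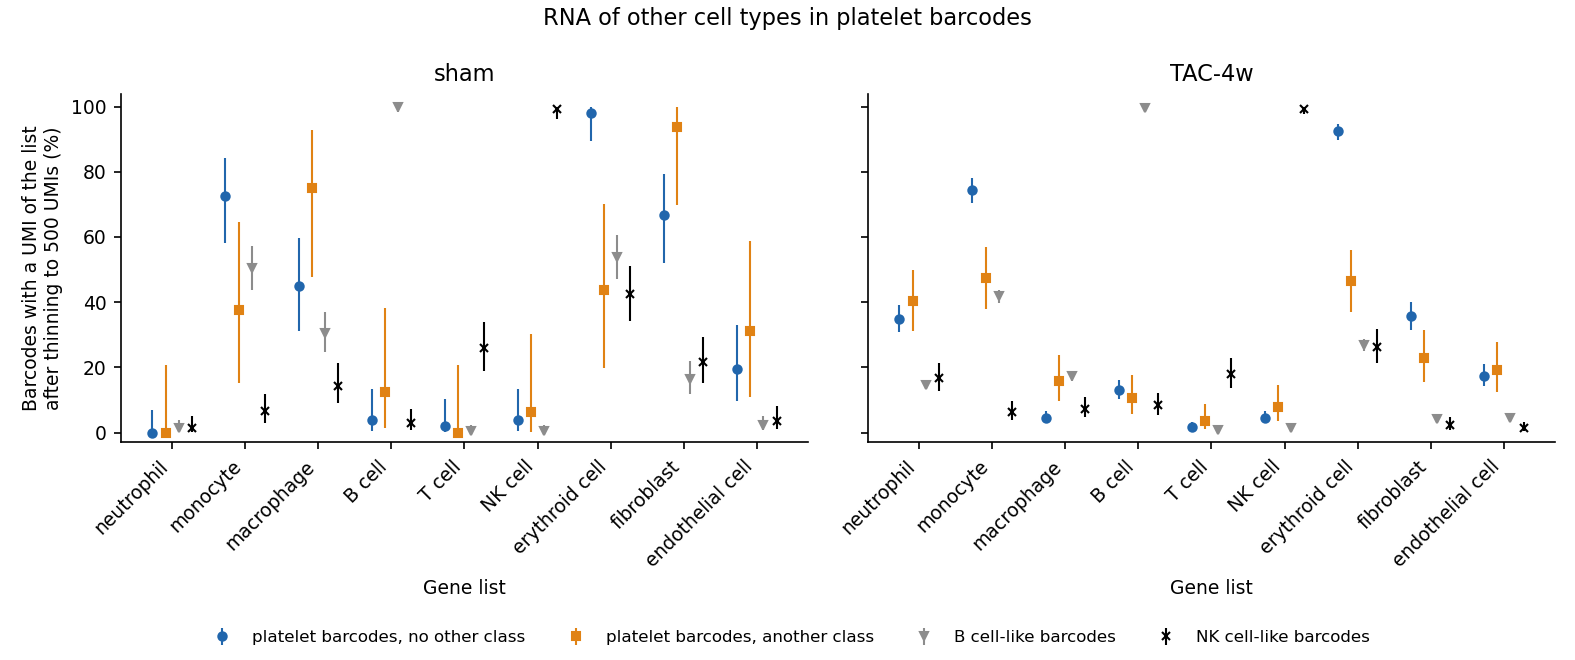
Percentage of barcodes with a UMI of each list of other cells' genes after thinning to 500 UMIs, in the sham and TAC-4w libraries, for platelet barcodes of no other class, platelet barcodes of another class, B cell-like and NK cell-like barcodes, with exact 95% binomial intervals. In platelet barcodes of no other class the neutrophil list is at 0% in sham and 34.9% in TAC-4w, against 14.7% in B cell-like barcodes of TAC-4w.

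Counting all 6 leukocyte lists together, 10 or more UMIs of any were carried by 116 of 630 platelet barcodes in TAC-4w (18.4%), 15 of 67 in sham, 8 of 19 in TAC-2w and none of 14 in TAC-6w. In barcodes of no other class these counts were 43 of 516 (8.33%), 3 of 51, 2 of 10 and 0 of 13. Most of the 43 were counted for the monocyte list, which Lyz2 dominated, with 42 barcodes at 10 or more UMIs. The macrophage list accounted for 11 of the 15 in sham and 5 of the 8 in TAC-2w, all in barcodes of another class. Its leading gene is Apoe, a lipid carrier that other cells make too, and 74.2% of fibroblast-like barcodes of sham and 82.7% of those of TAC-2w had 10 or more UMIs of the list, so that these counts are not particular to leukocyte RNA. In TAC-4w 21 platelet barcodes had 10 or more UMIs of more than 1 list, and 19 had no leukocyte UMI at all.

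Seen from the other cells, platelet RNA was more widespread in TAC-4w than in sham. In TAC-4w, at least 1 UMI of the 4 rule genes was found in 12.6% of B cell-like barcodes, 12.7% of T cell-like, 13.5% of NK cell-like, 15.3% of neutrophil-like, 22.7% of monocyte-like and 14.8% of endothelial-like barcodes. In sham the share was 0.442% of B cell-like, 0.719% of neutrophil-like and 7.14% of monocyte-like barcodes. The monocyte-like barcodes of TAC-4w were deep, with a median of 11595 UMIs against 4390 in B cell-like ones. After thinning to 500 UMIs, the TAC-4w shares were 2.98% (2.34 to 3.73) in B cell-like and 4.11% (3.07 to 5.39) in neutrophil-like barcodes, whose intervals overlap. The erythroid-like class stood apart, with 31 of 88 barcodes (35.2%) after thinning.

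Barcodes with 4 or more UMIs of the rule genes held more of the other platelet transcripts than those with fewer in the 4 classes compared. In TAC-4w they were 62 of 2450 B cell-like (2.53%), 35 of 1216 neutrophil-like (2.88%), 14 of 255 monocyte-like (5.49%), 7 of 245 T cell-like (2.86%), 5 of 304 NK cell-like (1.64%) and 35 of 88 erythroid-like barcodes (39.8%). The other 6 genes of the list of 10 platelet genes stood at 2006 CPM in the neutrophil-like barcodes with 4 or more rule UMIs and at 70.4 in those with fewer. The values were 1831 and 56.7 in B cell-like, 598 and 23.6 in monocyte-like and 12666 and 41.6 in erythroid-like barcodes. The intervals of the neutrophil-like share (2.01 to 3.98) and the B cell-like share (1.95 to 3.23) overlapped. Overlap does not show that the shares are equal, and their difference was not tested. Attached cells and chance pairs in 1 droplet cannot be told apart by these counts.

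**Figure D4:**
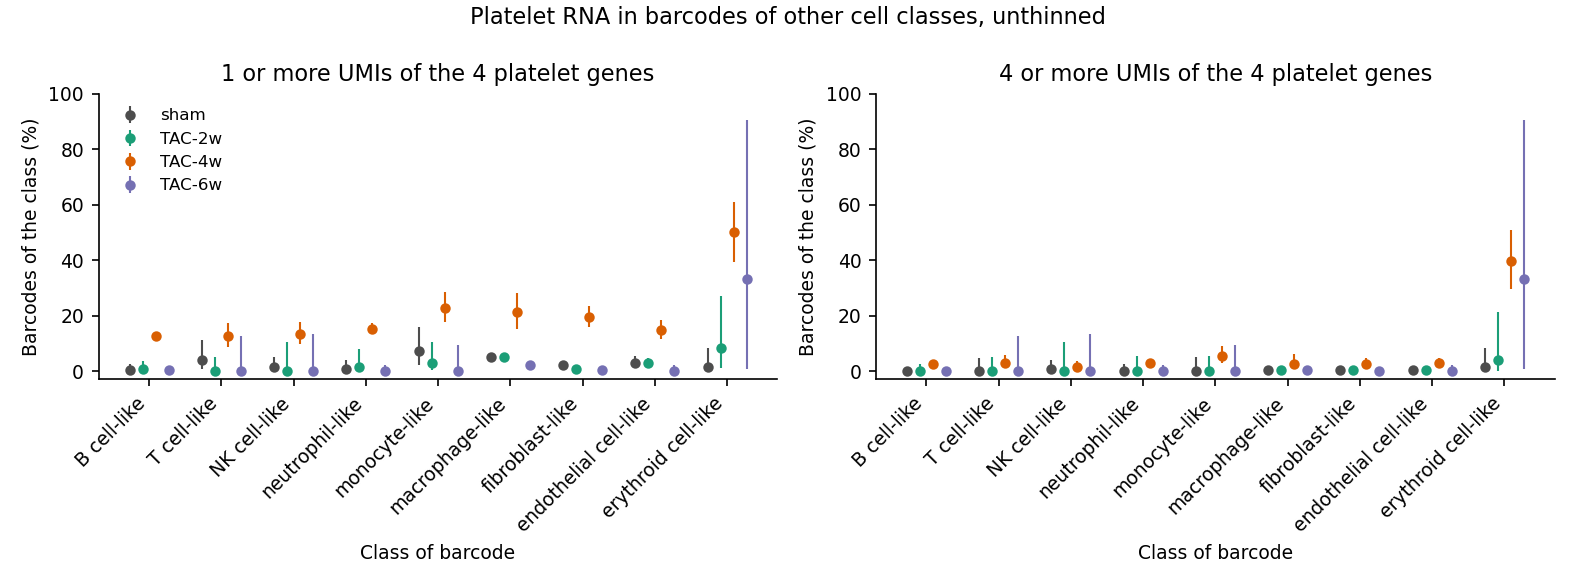
Percentage of barcodes of each class with 1 or more (left) and 4 or more (right) UMIs of Ppbp, Gp9, Clec1b and Treml1, without thinning, in the 4 libraries, with exact 95% binomial intervals. TAC-4w lies between 12.6% and 22.7% in the leukocyte classes of the left panel, and its erythroid-like barcodes reach 50% in the left panel and 39.8% in the right one, where the TAC-6w erythroid-like class holds 3 barcodes only.

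The heart sections, which the rule did not use, gave another order. In a section each spot is a small region that holds several cells, so that fewer platelets and less RNA per platelet cannot be told apart. The 10 platelet genes summed to 6.12 CPM in sham (5.202 to 7.14, from 159 UMIs over 1676 spots), 10.2 in TAC-2w (9.32 to 11.1, 497 UMIs over 2063 spots), 5.38 in TAC-4w (4.61 to 6.25, 172 UMIs over 1228 spots) and 9.15 in TAC-6w (8.32 to 10.1, 442 UMIs over 2193 spots). The ratio to sham was 1.67 (1.39 to 2.00) in TAC-2w, which shares batch 1 with sham among the sections, 0.880 (0.706 to 1.10) in TAC-4w and 1.497 (1.25 to 1.80) in TAC-6w. TAC-4w, highest by far among the cell libraries, was thus not above sham in the sections, and its interval includes 1.

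Single genes moved unequally. Ppbp was at 1.5, 2.52, 1.10 and 2.01 CPM in sham and then TAC-2w to TAC-6w, and Nrgn at 3.04, 4.72, 1.44 and 4.12. Itga2b went another way, at 0.616, 1.07, 1.44 and 1.35. Pf4, which macrophages of the cell libraries also carried, was at 28.2, 33.0, 36.8 and 37.8 CPM.

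Platelet UMIs made up a larger part of all UMIs in the spots richest in haemoglobin than in the remaining spots of each section, though most lay outside them. Haemoglobin stood at 10463 CPM in sham, 13699 in TAC-2w, 3928 in TAC-4w and 7591 in TAC-6w, in the same order as Ppbp and Nrgn with the exception of sham and TAC-6w. The 10% of spots with the highest haemoglobin share held 13.8% of the UMIs of the 10 platelet genes in sham, 43.1% in TAC-2w, 13.4% in TAC-4w and 36.2% in TAC-6w, against 4.05%, 4.74%, 5.77% and 5.70% of all UMIs. In these spots the list stood at 20.9, 92.7, 12.5 and 58.2 CPM, and in the remaining spots at 5.49, 6.09, 4.95 and 6.19. Outside the spots richest in haemoglobin, the 4 sections lay within 4.95 to 6.19 CPM. The part of retained blood in the section differences was not tested.

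**Figure D5:**
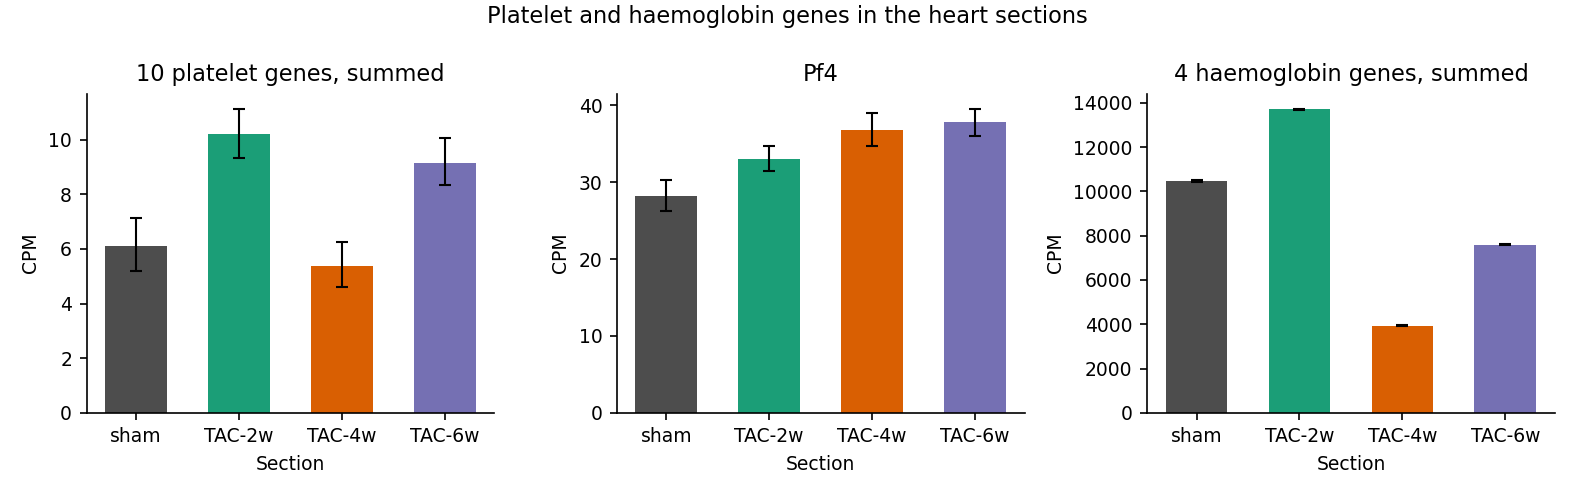
CPM of the 10 platelet genes summed, of Pf4 and of the 4 haemoglobin genes summed in the 4 heart sections (bars from 0), with 95% Poisson intervals. The platelet list is at 10.2 in TAC-2w and 9.15 in TAC-6w against 6.12 in sham and 5.38 in TAC-4w, and haemoglobin is lowest in TAC-4w at 3928.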

How the data were processed

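Single-cell and spatial UMI counts (whole-number counts per gene, not normalized) were used as deposited, with mouse genes of build mm10. Per the file headers the matrices came from cellranger 6.0.0 and spaceranger 1.2.0, whereas the submitters' processing notes name Cell Ranger 7.0.0 and Space Ranger 1.3.1. The labels describe a nuclei preparation and the study's methods a dissociated cell suspension. No replicate existed, so no test was run. Shares carry exact Clopper-Pearson intervals, levels exact Poisson intervals and ratios exact conditional binomial intervals. Genes were called at a ratio of 4 (against other barcodes) or 2 (between libraries) with 50 UMIs in either sum. Barcodes were compared after thinning to 500 UMIs. No doublets were removed; an alternative left out the 3.2% of barcodes with the highest Scrublet scores in each library.

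The members and gene lists were chosen with earlier results of these data known. Genes of the lists could be named, as could the 15 most abundant genes and the 15 with the highest ratios in TAC-4w and the 10 highest and 10 lowest ratios of each library to sham. The classes, the subset of no other class and the exclusion of single barcodes (the deepest of TAC-2w, that with the most Malat1 UMIs of sham) follow marker lists or were added after the values were seen. One listed gene is not reported here. The code was tested on simulated data. Software was scipy 1.17.1 and scanpy 1.11.5 under Python 3.11.15, with tables handled in pandas 2.3.3.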

Additional observations from a re-analysis of the deposited data

Results flagged for a closer look

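Barcodes that the filters left out also carried platelet RNA. Of 1673 deposited TAC-4w barcodes outside the filters on genes, UMIs and mitochondrial share, 14.2% (12.5 to 15.9) had 4 or more UMIs of Ppbp, Gp9, Clec1b and Treml1, against 0.977% (0.598 to 1.505) of 2047 such barcodes in sham. This signal lies in barcodes that no comparison above used, and 196 of the 237 TAC-4w barcodes concerned had a mitochondrial share of 15% or more.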

How the results depend on the processing

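The direction of every ratio of shares to sham held under all alternatives run, and the TAC-4w ratio stayed between 10.2 and 13.6. The shares themselves moved. In sham the share was 1.09% at a threshold of 2 UMIs, 0.571% at 8, 0.363% with mitochondrial UMIs under 5%, 0.596% after thinning and 0.620% without barcodes of another class. In TAC-4w these values were 11.2%, 7.77%, 3.86%, 7.83% and 7.65%, with 10.9% when no exclusion by leukocyte genes was made and 10.2% with no barcode filter. With mitochondrial UMIs under 5% the ratios to sham were 0.694 in TAC-2w and 0.668 in TAC-6w. The count of genes at least 4-fold higher in TAC-4w was 483 from the mean of each barcode's level and 447 with a minimum of 10 UMIs.

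Counts between libraries depended most on which barcodes and genes entered. With a threshold of 8 UMIs, 39 of 273 genes (14.3%) were higher and 36 (13.2%) lower in TAC-2w than in sham. In TAC-4w 236 of 1533 (15.4%) were higher and 173 (11.3%) lower, and in TAC-6w 48 of 252 (19.05%) and 111 (44.05%). The lower counts of TAC-2w and TAC-6w thus fell while their shares rose, from 9.61% and 38.3%. With a minimum of 10 UMIs the higher and lower counts were 345 and 408 of 3163 in TAC-2w, 991 and 2003 of 8224 in TAC-4w and 330 and 605 of 2891 in TAC-6w. In barcodes of no other class, 71 genes were higher and 61 lower of 184 in TAC-2w (1 higher and 6 lower of 118 without its deepest barcode). There were 80 higher and 28 lower of 944 in TAC-4w and 1 higher and 15 lower of 118 in TAC-6w. Without thinning, 60.95% of TAC-4w platelet barcodes had a UMI of the neutrophil list and 15.3% of neutrophil-like barcodes a platelet UMI. The cause of these changes was not tested. The ratios of the section list to sham ranged from 1.43 to 1.84 in TAC-2w, 0.729 to 0.880 in TAC-4w and 1.28 to 1.497 in TAC-6w.

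No paired analysis was possible because each condition had 1 library and 1 section. With 9 to 13 barcodes of no other class in TAC-2w and TAC-6w, only genes with 50 UMIs in one of the sums could be compared, which in these libraries were mostly set by the sham sum. Removing the barcodes with the highest doublet scores left out 21 platelet barcodes in TAC-4w (14 of another class), 1 in TAC-6w and none in sham and TAC-2w.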
